A study of Drosophila melanogaster with 4 samples.

Results

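The genes examined in RNA from sorted embryonic gonads mark the somatic cells of the Drosophila gonad, namely tj, eya, so, zfh1, Sox100B, esg, bnb, fax and Fas3. They were chosen by name, as transcription factors and markers of somatic gonadal precursors, of male-specific precursors and of the hub, and make up 9 of the 17103 genes listed. The samples were 2 control samples from embryos that carry vas-GFP and 2 samples from embryos that carry the same transgene and are mutant for Phf7 (Phf7ΔN18), a histone reader of the male germline. All embryos were of stage 17, grown at 25 °C and aged 18 to 22 h, with both sexes together in each sample. The vas-GFP transgene marks germ cells only. Gonads were freed by mechanical disruption and GFP-positive ones were collected by flow sorting, so germ cells and the somatic cells that surround them were sequenced together. Only 3′ ends of transcripts were sequenced, so that a transcript gives about the same number of reads whatever its length, and levels of different genes were set side by side without scaling by length.

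The somatic gonad arises from mesodermal cells, the somatic gonadal precursors, which meet the migrating germ cells, enclose them and compact with them into a round organ. In a male gonad some of these cells at the anterior form the hub, the signalling centre of the germline stem cell niche, and an extra cluster of male-specific precursors joins at the posterior. The sex of the somatic cells is set by doublesex (dsx), and the somatic cells send signals such as the JAK-STAT ligand upd1 to the germ cells. Traffic jam (tj) is a Maf-family transcription factor of the cells that intermingle with germ cells. Eyes absent (eya) is a co-activator that binds the Six-family homeodomain protein Sine oculis (so). Zfh1 is a zinc finger and homeodomain protein needed for the formation of gonadal mesoderm.

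The deposited table gives a mean normalized count per gene over the 4 libraries. For genes with a mean of up to 1000 the whole numbers of reads in each library were recovered from the printed digits of this mean, as described under the processing. No replicate number is attached to a recovered library, and they are called control a, control b, mutant a and mutant b, in which a and b are only names. The reads recovered came to 1842411 and 1536698 for control and 2130832 and 2051338 for mutant libraries, over 17.4% of the total of the means. Phf7, the mutated gene, had 749 and 495 control reads and 9 and 44 mutant reads, which matched the labels. It was also far from the threshold in the test used for the members (limma, log2 difference -5.16, adjusted p = 0.537), so a gene that missed the threshold in these 4 libraries is not shown to be unchanged. Libraries of the same genotype differed in markers of tissues around the gonad. The summed normalized level of 12 muscle markers was 1024 in control a, 3394 in control b, 4699 in mutant a and 1183 in mutant b, and 8 of 8 neuron and 4 of 4 midgut markers tested shared this order within each genotype. The summed level of the 11 germ cell genes with reads lay between 4886 and 5280 in the 4 libraries. Single genes went in both directions under this sum. In 4 of the 11 both mutants lay above both controls (15.4% of all genes), and in 2 below (17.5%). The other genes of that list of 17, among them vas and piwi, had means above 1000 and no library values.

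All 9 members were detected, at levels that spanned the range of expressed genes. The highest was fax (failed axon connections), named for its role in axon growth, with an authors' mean of 15455, rank 117 of the 12679 genes detected. It was followed by bnb (bangles and beads), first known from the embryonic nervous system, with a mean of 5414. tj had a mean of 3411 and zfh1 a mean of 2260, and these factors ranked 378 and 590. The germ cell genes vas, piwi and shu, for comparison, had means of 3599, 1540 and 1412. Markers of other tissues were present too, with means of 3352 for the neuron marker Syx1A and 832.5 for the muscle marker Mlc2. How much of the reads of any member came from outside the gonad was not tested. Fas3, a homophilic adhesion molecule of hub cells and of several epithelia, had a mean of 995, and esg, a Snail-family repressor needed to maintain the male stem cell niche, had a mean of 906.6. The members therefore held 6 genes with percentiles from 87.3 to 99.08 among detected genes and 3 genes below them.

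The lower members were so, with a mean of 217.6 at the 63.88 percentile, eya, with a mean of 47.37 at the 43.19 percentile, and Sox100B, a SoxE-family transcription factor known from male-specific precursors, with a mean of 3.08 at the 17.36 percentile. The 4 highest members made up 92.44% of the summed mean of the 9, and fax alone made up 53.83%. The steps in this order were uneven. Fas3 was only 1.098 times esg, and both the 2 control and the 2 mutant values of these genes overlapped between them, so their order is not settled by these libraries. By contrast esg was 4.167 times so, so was 4.593 times eya, and eya was 15.38 times Sox100B, and at each of these steps every library value of the upper gene lay above every value of the lower one. The order of fax, bnb, tj and zfh1 rests on the means alone, which carry no error. A shared label thus covered genes that differed 5018 times in mean count between fax and Sox100B.

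**Figure D1:**
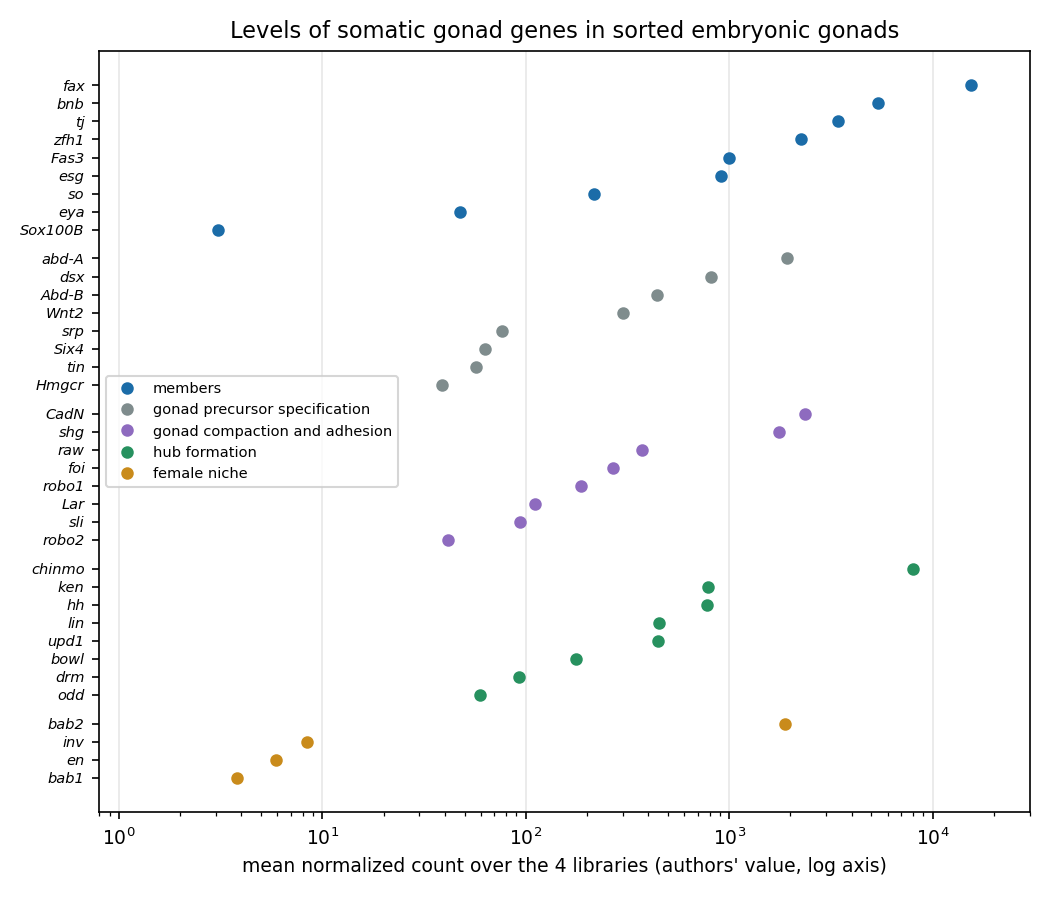
Mean normalized count of each gene over the 4 libraries, as the authors' value on a log axis, for the 9 members and for 4 other lists of somatic gonad genes, each point standing for 1 gene. The members run from 3.08 for Sox100B to 15455 for fax, and chinmo, at 7991, is the highest gene of the other lists.

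Genes from the lists for other steps of gonad development were present over a like range. In the list of precursor specification genes the highest means were 1917 for abd-A, the Hox gene that defines where somatic gonadal precursors form, 811.6 for dsx, and 442.6 for Abd-B, the Hox gene of the posterior gonad. Among the genes of compaction and adhesion, the cadherins CadN and shg had means of 2348 and 1763. In the hub list the highest was chinmo, a zinc finger factor that keeps the male identity of somatic stem cells in the adult testis, with a mean of 7991, followed by ken at 783.0 and hh at 775.2. Of the genes known from the ovarian niche, bab2 had a mean of 1878, whereas inv, en and bab1 lay below 10. Six4, a second Six-family partner of Eya needed for gonad formation, had a mean of 62.86, so that so was 3.462 times Six4. All these means are of the whole sorted samples, and the part of other tissues in them, such as neurons, was not tested.

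Where the members lie bears on how their reads can be read. In the dm6 assembly with the Ensembl annotation, tj lies on chromosome arm 2L at 19464267 to 19467758, eya on 2L at 6527447 to 6546976, esg on 2L at 15333866 to 15336138 and Fas3 on 2L at 18320102 to 18393441. The so gene lies on 2R at 7419350 to 7434872 and fax on 3L at 16402796 to 16411828. On 3R are zfh1 at 30765926 to 30789202 and Sox100B at 31065253 to 31083407, and bnb is at 18794246 to 18797687 on X. For tj, eya, so, Sox100B and esg all annotated transcripts share 1 end, whereas Fas3 has 5 ends spread over 6338 bp. Of the members, zfh1 alone shares exon bases with another gene, 315 bp with the antisense RNA asRNA:CR45189 on the opposite strand. The strand setting of the counting is not given in the sources used here, so some zfh1 reads could belong to that RNA. Other genes that overlap so, bnb and Fas3 share no exon bases with them.

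Reads per library were recovered for 5 members. For zfh1 the digits allow 4 sets of whole numbers, of which only 1 has its highest and lowest library within 4-fold. Of the 1199 genes with means between 500 and 1000, 97.25% stayed within 4-fold, with a median of 1.429. That set is given below as a description, chosen after its values were seen. For tj 20 sets exist and 4 of them stay within 4-fold, so no library value of tj is given, and none was searched for bnb and fax. The comparison of genotypes therefore covers eya, so, esg and Fas3, which had a mean of at least 10 and entered the fit over 7653 genes, and Sox100B as reads only.

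The first question was whether the genes of the gonadal soma kept their level when Phf7 was mutated in the whole embryo. None of the 4 tested members changed at an adjusted p under 0.05 by limma, and none had an unadjusted p under 0.05. Over all genes 0 of 7653 (0.00%) passed the adjusted threshold, while 449 had an unadjusted p under 0.05, 271 of them lower (3.54%) and 178 higher (2.33%) in mutants. With limma-voom, 0 genes passed and 391 had an unadjusted p under 0.05. The study used another test, DESeq2 on counts, and did report genes that passed an FDR of 0.05. The 0 found here therefore does not show that no gene differed between the genotypes. All 4 tested members had log2 differences below 0, between -0.51 and -0.37, with a median of -0.41 against 0.01 over all genes, of which 48.8% lay below 0. In 2 of the 4, esg and Fas3, both mutant values lay below both control values, as they did in 17.5% of all genes. With 2 samples against 2 an exact two-sided permutation test of 1 gene cannot go below p = 0.333. In a mixture of cell types, fewer cells of a type and less RNA per cell cannot be told apart.

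The Eya and So pair was read first. eya had 71 reads in control a, 30 in control b, 33 in mutant a and 58 in mutant b, or normalized values of 72.2, 36.5, 29.2 and 51.7. Its level in control a was 1.979 times that in control b, and its level in mutant b was 1.768 times that in mutant a, so the genotypes overlapped and the spread lay within each of them. Its log2 difference, mutant minus control, was -0.39 ± 0.52 (SE, n = 2 per genotype, limma), with a 95% interval from -1.87 to 1.09 and an adjusted p of 0.985.

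so had 314 and 142 control reads and 150 and 276 mutant reads, or normalized values of 319.1, 172.5, 132.9 and 245.9. Here too control a was high, mutant a was low and the genotypes overlapped. The log2 difference was -0.37 ± 0.52 (SE, n = 2 per genotype, limma), with a 95% interval from -1.85 to 1.10 and an adjusted p of 0.985. These intervals take in both a fall to 0.278 of the control level and a rise to 2.14 times it for so, and so leave differences of that size undetectable at this number of samples. Without control a, or without mutant a, the log2 differences of both genes turned to slightly above 0, 0.09 and 0.01 for eya and 0.07 in both cases for so.

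**Figure D2:**
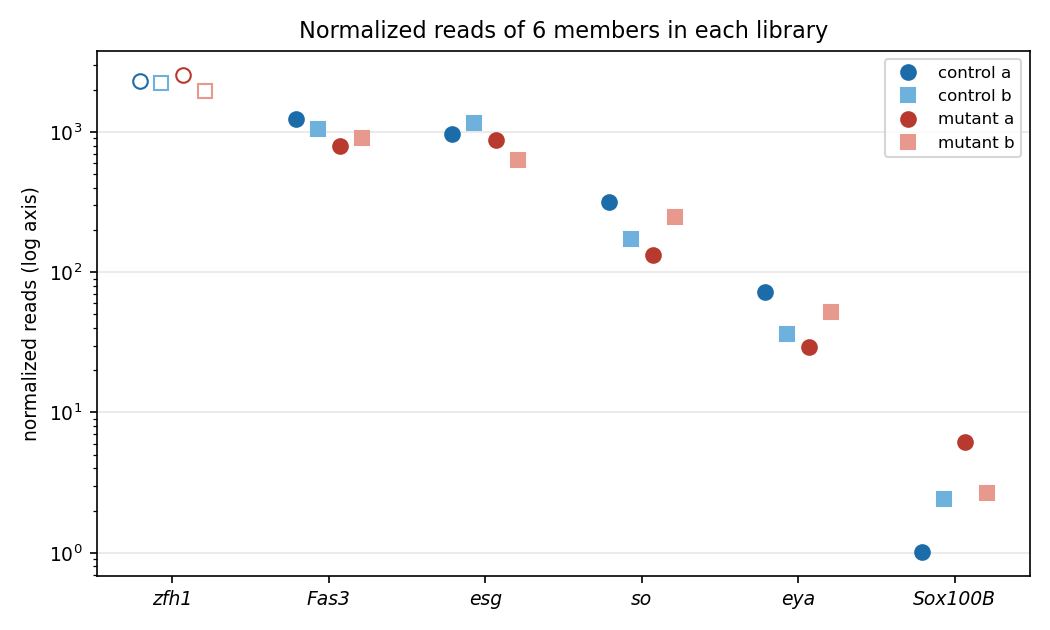
Normalized reads of 6 members in each library on a log axis, with circles and squares for the a and b libraries, blue for control and red for mutant. Open symbols for zfh1 stand for the most even of its 4 possible sets, and only esg and Fas3 have both mutant points below both control points.

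Although both genes moved up and down between libraries by 2.40 to 2.47 times, their ratio to each other stayed nearly fixed. The share of eya in the reads of eya and so was 18.4% in control a, 17.4% in control b, 18.0% in mutant a and 17.4% in mutant b. The exact (Clopper-Pearson) 95% intervals ran from 12.1% to 24.4% over the 4 libraries, so a difference in this ratio was not detectable at 172 to 385 reads a library. These intervals and those below cover counting error only, since reads without molecular identifiers are not independent molecules. By the distance between profiles over the 4 libraries, with each gene centred on its own mean log2 value, so was the 5th nearest of 5658 genes to eya, at 0.04 log2 units. The 3 nearest to eya were sub, dos and Irbp, and the 3 nearest to so were egr, CG3773 and Irbp. Such likeness over 4 libraries is a description of these samples. The order of eya and so within each genotype, a above b in controls and b above a in mutants, was shared by 36.7% of all genes.

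Six4 did not follow this profile. It had 53 and 61 control reads and 74 and 65 mutant reads, so it was lowest in control a, where eya and so were highest. The share of eya in the reads of eya and Six4 ran from 30.8% in mutant a to 57.3% in control a, with exact 95% intervals of 22.3% to 40.5% and 48.1% to 66.1% that did not overlap. The factors that act with Eya and So in the eye stood lower, with means of 28.6 for toy and 18.4 for ey, the Pax6 homologues of the fly. None of the 4 genes of this list that were tested, Six4, toy, ey and Optix among the 5 listed with dac, passed the threshold.

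**Figure D3:**
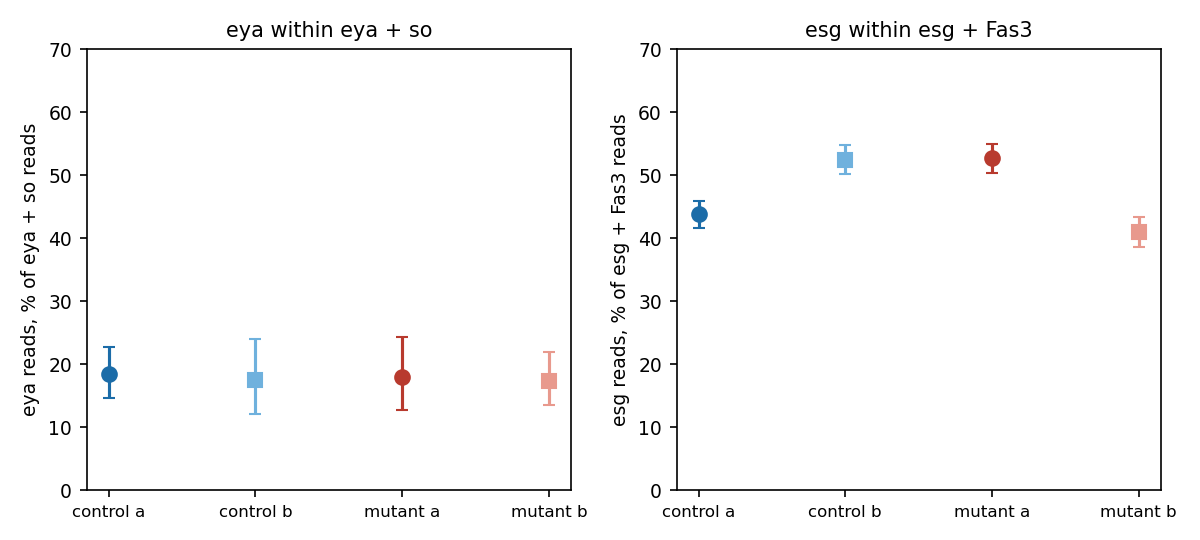
Share of eya in the reads of eya and so (left) and of esg in the reads of esg and Fas3 (right) in each library, in percent, with exact 95% binomial intervals as bars. The 4 shares of eya lie between 17.4% and 18.4%, whereas the share of esg lies at 43.8% and 40.9% in control a and mutant b and at 52.4% and 52.7% in control b and mutant a.

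Of the 4 tested members, esg and Fas3 were the 2 whose genotypes did not overlap, with mutants below controls as in 17.5% of all genes. Both are known from the hub, but most tested genes of the hub list overlapped between genotypes, as given below. esg had 948 and 954 control reads and 990 and 704 mutant reads, which on normalization gave 963.3, 1159, 876.9 and 627.2. The raw reads overlapped and the groups came apart once the larger size of the mutant libraries was taken into account. The log2 difference was -0.51 ± 0.31 (SE, n = 2 per genotype, limma), with a 95% interval from -1.41 to 0.39 and an adjusted p of 0.969, and it was -0.27 without mutant b.

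Fas3 had 1217 and 865 control reads and 889 and 1016 mutant reads, or normalized values of 1237, 1051, 787.4 and 905.2. Both mutant values lay below both control values, by a gap no larger than the distance between the 2 controls. The log2 difference was -0.43 ± 0.27 (SE, n = 2 per genotype, limma), with a 95% interval from -1.19 to 0.33 and an adjusted p of 0.969. The intervals of esg and Fas3 were narrower than those of eya and so and reached down to 0.377 and 0.437 of the control level, and both still held a difference of 0.

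esg and Fas3 did not keep a fixed ratio to each other. esg made up 43.8% of the reads of the pair in control a and 40.9% in mutant b, but 52.4% in control b and 52.7% in mutant a, with exact 95% intervals that overlapped within each of these couples of libraries and not between them. This split ran across the genotypes. It was the split of the markers of muscle, neuron and midgut, which were higher in control b and mutant a, and within each genotype esg was higher in the library where those markers were higher. The profiles nearest to esg were those of Lpin, CG3838 and CG12728, and those nearest to Fas3 were CG5991, GAPsec and DAAM.

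Among other genes of the hub list, 7 of 8 were tested and 0 passed the threshold or an unadjusted p of 0.05. A log2 difference below 0 was found in 4 of the 7, and in 48.8% of all genes. hh, the ligand of the Hedgehog pathway, had 751 and 806 control reads and 879 and 651 mutant reads, with a log2 difference of -0.36 ± 0.32 (SE, limma, adjusted p = 0.985), which was -0.18 without control b and -0.15 without mutant b. ken, a transcriptional repressor, had 786 and 725 control reads and 976 and 660 mutant reads. upd1, the niche ligand made by hub cells, was outside the rule for named genes and was picked after its values were seen. It had 661 and 384 control reads and 239 and 494 mutant reads, or normalized values of 671.7, 466.5, 211.7 and 440.1, so both mutants lay below both controls. Its log2 difference was -0.87 ± 0.49 (SE, limma), with a 95% interval from -2.28 to 0.53 and an adjusted p of 0.954, and it was -0.35 without mutant a and -1.40 without mutant b. Like eya, so and Fas3, upd1 was higher in control a and mutant b than in the other library of its genotype, as were 36.7% of all genes. It was the only 1 of the 7 tested genes of the hub list with this order. In 5 of them, lin, drm, odd, hh and ken, the order was the opposite, that of the muscle markers (35.9% of all genes).

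Markers of tissues that also use Fas3 or that could come along with the gonads were set beside these results. The visceral mesoderm, which expresses Fas3 in the embryo, is formed under the forkhead factor bin. bin had 841 and 871 control reads and 504 and 587 mutant reads, a log2 difference of -0.98 ± 0.28 (SE, limma, adjusted p = 0.784). It was the only gene of the lists other than the members' to reach an unadjusted p under 0.05, which 3.54% of all genes did in this direction. Both mutant values of bin lay below both control values, as for Fas3 and esg and for 17.5% of all genes. The other genes of that list were low, with a mean of 2.46 for bap, 8.74 for Hand and 18.3 for svp. Of these only svp was tested, and its mutant values also lay below its control values. It had 20 and 20 control reads and 21 and 11 mutant reads (log2 difference -0.67 ± 0.41, SE, limma, adjusted p = 0.961). The part of visceral mesoderm in the Fas3 values was not tested.

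Sox100B was close to the floor of detection. It had 1 and 2 control reads and 7 and 3 mutant reads, or normalized values of 1.02, 2.43, 6.20 and 2.67, with both mutants above both controls. The exact Poisson 95% interval of the 7 reads in mutant a runs from 2.81 to 14.4. That of the 1 read in control a runs from 0.0253 to 5.57 and that of the 2 reads in control b from 0.242 to 7.22. These intervals are not scaled for depth, and their overlap is not a test of a difference between libraries. Over the genotypes 10 reads stood against 3, a ratio of 2.68 for mutant over control after scaling for depth, with an exact 95% counting interval from 0.689 to 15.1. At this depth neither a fall nor a rise of the gene was detectable. Other genes tied to the sex of the somatic gonad were far higher, in reads that pool both sexes. dsx had 573 and 711 control reads and 1103 and 924 mutant reads (log2 difference 0.34 ± 0.33, SE, limma, adjusted p = 0.985). Without control a this difference was 0.05, and without control b it was 0.62. Wnt2, a ligand of the male gonad needed for the pigment cell sheath of the testis and picked after its values were seen, had 409 and 202 control reads and 261 and 347 mutant reads (log2 difference -0.26 ± 0.40, SE, limma, adjusted p = 0.985), and its genotypes overlapped.

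The share of male gonads in each sample is not known. roX2, an RNA of the male dosage compensation complex, had normalized values of 194.1 and 144.6 for control and 117.8 and 111.4 for mutant libraries, with both mutants below both controls (log2 difference -0.54 ± 0.29, SE, limma, adjusted p = 0.949). Without control a the log2 difference of roX2 was -0.33. The hub forms in males only. Of its genes, the members esg and Fas3 also had both mutants below both controls, as 17.5% of all genes did. In the hub list this held for 2 of the 7 genes tested, upd1 and bowl. The other 5, lin, drm, odd, hh and ken, overlapped between genotypes, with log2 differences of 0.04 for lin, 0.88 for drm and 1.14 for odd. The part of the sex of the gonads in these values was not tested.

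For zfh1, the most even set of whole numbers gave 2264 and 1835 control reads and 2892 and 2188 mutant reads, or normalized values of 2301, 2229, 2562 and 1949. The next most even set had a highest library 4.795 times its lowest. Because the set was chosen for its evenness, it says nothing about a difference between genotypes, and how genes with means above 1000 varied between libraries was not measured. bnb, fax and tj can be given as means over both genotypes only, and their levels in control and mutant gonads were not compared.

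**Figure D4:**
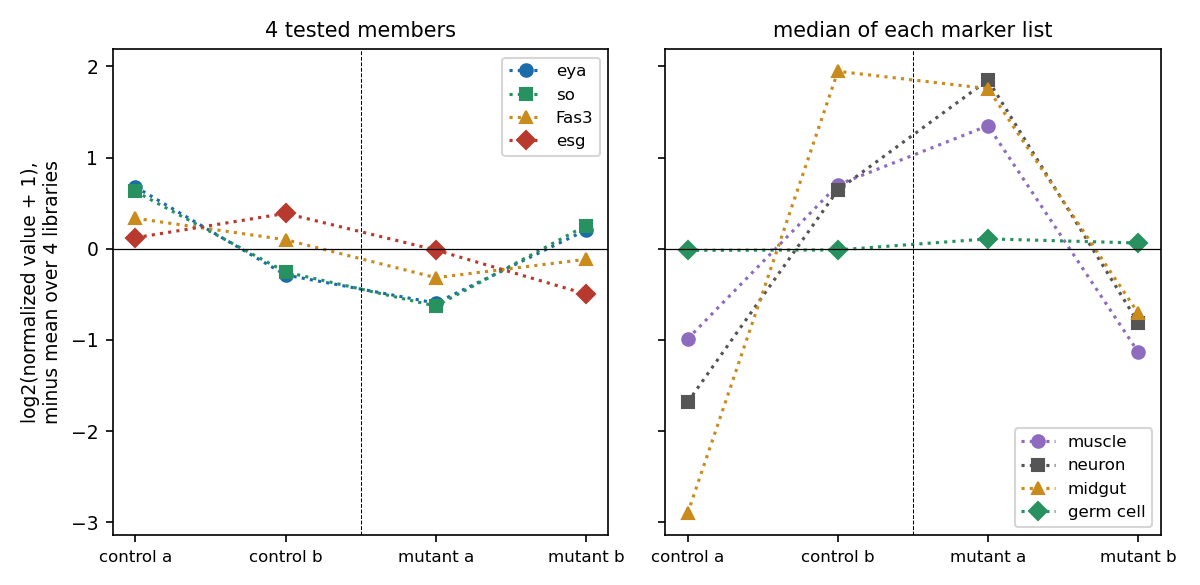
Profiles over the 4 libraries of eya, so, Fas3 and esg (left) and of the median gene of the muscle, neuron, midgut and germ cell lists (right), as log2(normalized value + 1) minus the mean of the gene over the 4 libraries. eya and so are nearly superimposed and are high in control a and mutant b, the 2 libraries in which the muscle, neuron and midgut medians are low, while the germ cell median stays near 0.

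The second question was how the members varied among libraries of the same genotype. eya, so and Fas3 were higher in control a than in control b and higher in mutant b than in mutant a, as were 36.7% of all genes tested. The markers of muscle (12 of 12 tested), neuron (8 of 8) and midgut (4 of 4) had the opposite order, which 35.9% of all genes shared, and esg had that order too. Between the libraries of a genotype eya and so differed 1.768 to 1.979 times and Fas3 differed 1.15 to 1.177 times. Within each genotype these markers were thus lower in the library where eya and so were higher, and the part of tissue carried along with the gonads in the member values was not tested. With the mean log2 level of 24 such markers as a covariate, which leaves 1 residual degree of freedom, the log2 differences were -0.22 for eya, -0.20 for so, -0.58 for esg and -0.39 for Fas3, and 0 members passed.

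Glial markers were looked at because bnb and fax are known from the nervous system. repo, the transcription factor that defines most glia of the fly, had 2 and 5 control reads and 29 and 7 mutant reads, and is named outside the rule, as the defining marker of its list. moody, a receptor of the blood-brain barrier, had 392 and 253 control reads and 308 and 383 mutant reads. nrv2, a sodium pump subunit used as a glial marker, had 344 and 229 control reads and 264 and 289 mutant reads. Within each genotype moody and nrv2 were higher in the library where eya and so were higher, and repo was higher in the library where the neuron markers were higher. The highest gene of that list by mean was loco, at 1010. How much of the bnb and fax reads came from nervous tissue was not tested.

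**Figure D5:**
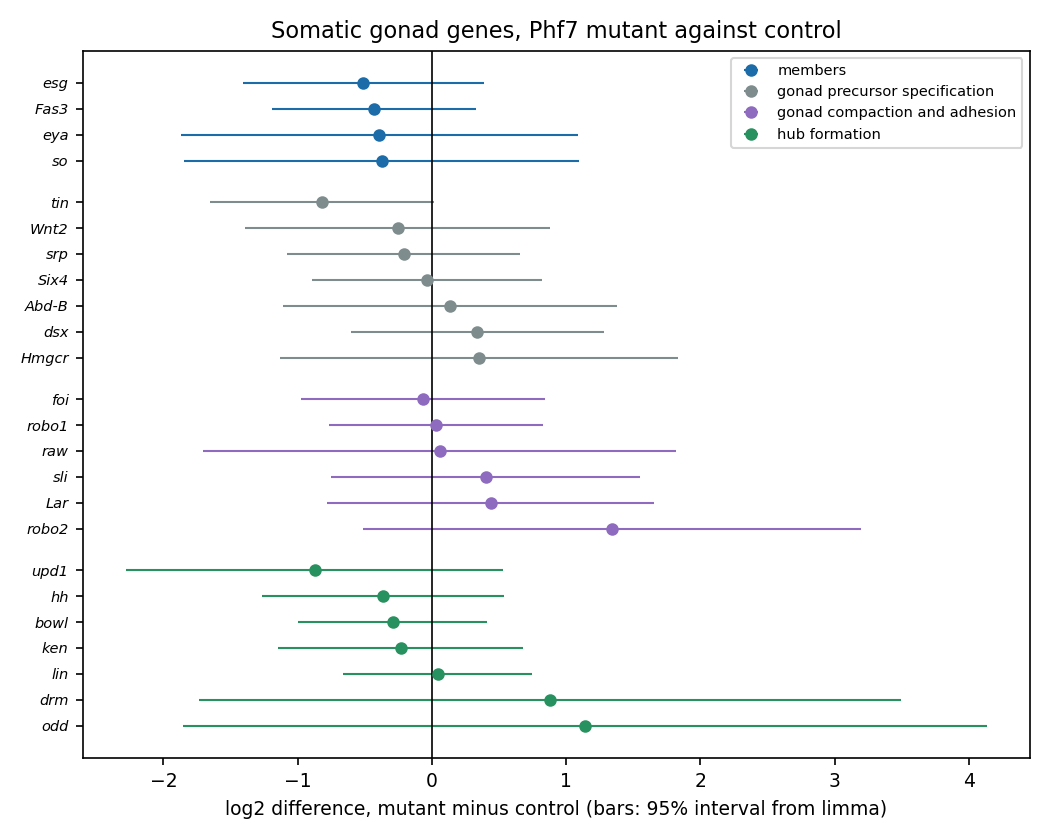
Log2 difference, mutant minus control, with its 95% interval from limma for the 4 tested members and for the tested genes of 3 other lists, 1 line per gene. All 4 members lie left of 0 with intervals that cross it, and the genes of the other lists lie on both sides.

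Over the 4 other lists of somatic gonad genes (specification, compaction and adhesion, hub, female niche) 20 of 28 genes were tested, and 0 of them passed the adjusted threshold or an unadjusted p of 0.05. Of the 20, 9 had a log2 difference below 0, as did 48.8% of all genes, and the median was 0.04. In 3 of the 20, tin, upd1 and bowl, both mutants lay below both controls (17.5% of all genes). In 1, robo2, both lay above (15.4% of all genes), and these genes are named because the counts are small. raw, needed for gonad compaction, had 241 and 386 control reads and 614 and 257 mutant reads, which is the order of the muscle markers. Among 12 relatives of the member transcription factors 6 were tested and 0 had an unadjusted p under 0.05. The most abundant of these with reads was scrt, a Snail-family factor of neurons, with 105 and 320 control reads and 957 and 150 mutant reads, so this relative of esg followed the neuron markers. Of the marker lists, 0 of 11 germ cell, 12 muscle, 8 neuron, 5 glia, 4 midgut, 6 hemocyte and 2 trachea genes tested had an unadjusted p under 0.05, and no fat body gene was abundant enough to test.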

How the data were processed

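RNA of 2 control and 2 Phf7 mutant samples of sorted stage 17 gonads was made into 3′-end libraries. Per the submitters' processing notes and methods, HISAT2 placed the reads on dm6, HTSeq assigned them to genes and DESeq2 compared the genotypes, and Cufflinks is also named. The sources used here do not give versions or the strand setting. The deposited table holds, per gene, a signal, which is the normalized count averaged by the authors over all libraries, and their comparison of control with mutant, a log2 fold change with its standard error, a Wald statistic, a p-value and an adjusted p. These comparison columns were not used as results. Only the sign of the deposited log2 values at genes with a single read was used, to tell which value of 1 read belongs to which genotype.

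Each mean adds up 4 whole read numbers, every one times the value of 1 read in its library (0.254 and 0.304 in the controls, 0.221 and 0.223 in the mutants). All whole numbers that give the 15 printed digits were searched. Each of the 11208 detected genes with a mean up to 1000 had exactly 1 solution, and 8 of 1500 decoys (0.533%) had one. Another 1471 genes had higher means. Values were normalized by the size factors these values imply (0.984, 0.823, 1.13 and 1.12), and log2(normalized value + 1) was tested two-sided with limma 3.58.1 in R 4.3.3 over 7653 genes with a mean of at least 10, with Benjamini-Hochberg adjustment. No count model was run, since the reads were inferred from a mean. On simulated counts with the same dispersion for all genes, only the median estimated difference was checked against the known one. The power and error rate of the test in these libraries were not measured. The SE and p-values rest on the spread between 2 samples per genotype, which limma moderates with the spread of all genes tested. A gene with close replicates, such as Fas3, thus gets a larger SE than its own samples give.

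The members and the other 15 lists were chosen with earlier results of these data known. Named were the members, Phf7, roX2, genes among the 3 with the highest mean in a list or with an unadjusted p under 0.05 where they bear on the members, and the 3 nearest profiles (mean at least 50). Further list genes (among them upd1, Wnt2, repo and those named to complete a count) were added after their values were seen. Gene positions come from Ensembl release 115 (BDGP6.54). Alternatives were voom weights, a variance trend, other pseudocounts, filters and scalings, leaving out each library, a tissue score and, added after the data were seen, zfh1.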

Additional observations from a re-analysis of the deposited data

How the results depend on the processing

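Over 13 alternatives to the fit, 0 members and 0 genes of the whole table passed the adjusted threshold. The alternative that added zfh1 used values chosen for their evenness, so it is no test of zfh1, and it left the differences of esg and Fas3 unchanged. The log2 differences of esg (-0.75 to -0.27) and Fas3 (-0.55 to -0.32) kept their direction in all 13 alternatives. With 1 library left out, the lone library is assumed to vary like the others. The difference then ran from -0.87 to 0.09 for eya and from -0.82 to 0.07 for so, turning above 0 without control a (0.0917 and 0.0673) and without mutant a (0.0092 and 0.0672), and that of Wnt2 ran from -0.6346 to 0.123, the latter without control a. That of upd1 ran from -1.40 to -0.35, of hh from -0.57 to -0.15, of roX2 from -0.76 to -0.33 and of dsx from 0.05 to 0.62. The number of members below 0 accordingly ran from 2 to 4 when 1 library was left out. Scaling by total recovered reads or by the upper quartile moved the median of all genes by 0.01 and 0.05 on the log2 scale and turned no member. Genes with an unadjusted p under 0.05 numbered 449 in the fit reported and 974 with the tissue score, 705 with no minimum mean and 263 without mutant a. No paired analysis was possible because the recovered libraries carry no replicate number. The number of samples limits every comparison, and means above 1000 leave tj, bnb and fax without library values.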
